A study of Arabidopsis thaliana with 9 samples.

Results

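The regions described here are the H3K4me3 peaks that lie around the 5 centromeres of Arabidopsis thaliana. Peaks of 6 H3K4me3 peak lists that overlapped by at least 1 bp were merged into regions, and a region was called pericentromeric where its midpoint fell in 1 of 5 windows of the TAIR10 genome. The windows run from 11.5 to 17.7 Mb on chromosome 1, from 1.1 to 7.2 Mb on chromosome 2, from 10.3 to 17.3 Mb on chromosome 3, from 1.5 to 6.3 Mb on chromosome 4 and from 9.0 to 16.0 Mb on chromosome 5. This gave 1353 pericentromeric regions of 14670 in all (9.22%), and the other 13317 lay in the chromosome arms. The rule uses position alone.

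The mark was mapped by ChIP-seq, the sequencing of DNA that an antibody pulls down with chromatin, in seedlings 12 days old, with 2 libraries each of jmj28-2, atx1/2 and Col-0. ATX1 and ATX2, the genes named in the label atx1/2, encode histone H3 lysine 4 methyltransferases of the trithorax family, and jmj28-2 is a mutant of JMJ28, a protein with a JmjC domain. Both mutants are in the Col-0 ecotype, and plain Col-0 was the wild type. All plants grew on half-strength MS medium with 1% sucrose at 23 °C, under 16 h of light and 8 h of dark. The labels do not say which ATX alleles were used or whether the 2 libraries of a genotype came from separately grown seedlings, so the spread between them could be technical only. Tests of peak length between genotypes rest on this spread, pooled over the 3 genotypes and moderated over regions. Those of pericentromeres against arms ask only whether a difference keeps its direction across the 6 libraries. Of 5 genes used in leaf, shoot or root tissue (RBCS1A, CAB1, CAB2, GAPB and SCR), 4 had a peak in all 6 libraries and CAB2 had none. How well reads map to CAB2 was not examined, so its missing peak need not mean a missing mark. Of 9 genes of seeds and pollen, 7 had no peak in any library, while PPME1 had one in all 6 and AT1G29140 in 2.

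The pericentromere is the stretch of heterochromatin on either side of a centromere. In Arabidopsis it is dense in transposons, which are kept silent by DNA methylation and by methylation of histone H3 lysine 9. H3K4me3 is a mark of the 5′ part of transcribed genes, and the genes scattered among pericentromeric transposons can carry it as well. By the gene annotation the windows were gene-poor, as their name implies: they held 3383 protein-coding genes (109 per Mb, against 274 per Mb in the arms) and 3346 annotated pseudogenes, against 571 in the arms. The annotation has no class of its own for transposable elements.

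H3K4me3 regions were rarer still than genes. The windows cover 31.1 Mb, 26.1% of the length spanned by peaks, and held 43.5 regions per Mb against 151 per Mb in the arms, a 3.48-fold lower density, whereas protein-coding genes were 2.52-fold less dense. Chromosome 5 had the most pericentromeric regions, with 342, followed by chromosome 1 with 304, chromosome 3 with 267, chromosome 2 with 245 and chromosome 4 with 195. Per Mb the order was different: 49.0 on chromosome 1, 48.9 on chromosome 5, 40.6 on chromosome 4, 40.2 on chromosome 2 and 38.1 on chromosome 3. The ratio of arm to pericentromere density ran from 3.01 on chromosome 1 to 4.20 on chromosome 3.

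The density fell step by step towards the centromeres. Within 1 Mb of a window border there were 845 regions (84.5 per Mb), between 1 and 2 Mb inside there were 372 (37.2 per Mb), and deeper than 2 Mb there were 136 (12.3 per Mb). The share of protein-coding genes with a peak was 45.1% ± 0.455 in the outer shell, 34.3% ± 0.373 in the middle shell and 22.2% ± 0.482 in the inner shell (mean and SD over 6 libraries). The peaks that remained were not much shorter: median peak length per region was 1720, 1675 and 1697 bp in the same order, and 89.8%, 89.5% and 88.2% of the regions had a peak in all 6 libraries. Regions with no protein-coding gene made up 5.68% of the outer shell, 11.8% of the middle shell and 16.2% of the inner shell. The shares count genes of long stretches without a peak, such as that of chromosome 2 with 100 protein-coding genes. How well reads can be placed in the shells was not examined, so a gene without a peak need not lack the mark. These shells are a description without a test.

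**Figure D1:**
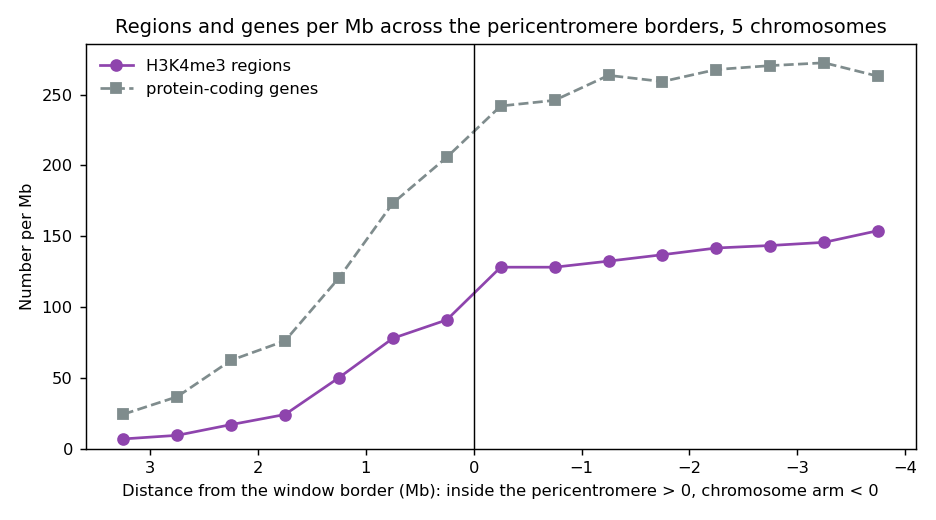
Number of H3K4me3 regions (circles) and protein-coding genes (squares) per Mb, in bins of 0.5 Mb, against the distance from the window border in Mb, summed over the 5 chromosomes; the pericentromere is on the left and the arm on the right of the vertical line. Regions number 128 per Mb in the arm bin next to the border, 91.0 per Mb in the first bin inside it and 6.96 per Mb in the innermost bin. The innermost bin holds 16 regions in 2.3 Mb, as the shorter windows reach it in part or not at all.

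Each window had a long stretch with no peak in any library. On chromosome 1 the stretch was 1310 kb long and lay between the regions of AT1G38131 and SKS6, a member of the SKU5-similar family of multicopper oxidase-like proteins. On chromosome 2 it was 468 kb, between AT2G07360 and MCM5, a subunit of the MCM helicase of DNA replication. On chromosome 3 it was 829 kb, between a region assigned to no gene and AT3G32930. On chromosome 4 it was 362 kb, between a region with no protein-coding gene and AT4G06534. On chromosome 5 it was 460 kb, between AT5G32470 and AT5G33280, annotated as the chloride channel CLCg. A region assigned to no gene overlapped no protein-coding gene by at least 200 bp and no gene of another class. The next longest stretch was 238 kb on chromosome 1, 274 kb on chromosome 2, 590 kb on chromosome 3, 332 kb on chromosome 4 and 455 kb on chromosome 5, so on the last 2 of these the longest stood out little.

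The peak-free stretches were not free of annotated genes. The one of chromosome 2 held 100 protein-coding genes and 77 pseudogenes, whereas that of chromosome 1, though longer, held 11 protein-coding genes and 135 pseudogenes. Those of chromosomes 3, 4 and 5 held 29, 4 and 5 protein-coding genes. The lists do not show whether reads can be placed uniquely in these stretches, so a missing peak there need not mean a missing mark. The peaks at the edges differed in length and rank. AT1G38131 had a peak of 1191 and 1188 bp in the jmj28-2 libraries, 1195 and 1200 bp in those of atx1/2, and 1109 and 1221 bp in Col-0, with score percentiles between 77.7 and 83.4. The score percentile is the rank of a peak's score among all peaks of its own list, from 0 for the weakest to 100 for the strongest. MCM5 had 2205 and 2152 bp in the jmj28-2 libraries, 1749 and 2167 bp in those of atx1/2, and 2069 and 2059 bp in Col-0, at percentiles from 13.0 to 22.1. SKS6 ranked lower, between 4.98 and 11.0, although it too had a peak in all 6 libraries. The edge region of chromosome 3 that was assigned to no gene had 0 and 0 bp in the jmj28-2 libraries, 971 and 1043 bp in those of atx1/2, and 868 and 953 bp in Col-0, at percentiles of at most 2.28.

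Pericentromeric peaks were shorter and ranked lower than arm peaks in every library. The median pericentromeric peak was 1685 and 1701 bp in the jmj28-2 libraries, 1695 and 1691 bp in those of atx1/2, and 1708 and 1725 bp in Col-0, and the median arm peak was 1814 and 1833 bp in the jmj28-2 libraries, 1833 and 1827 bp in those of atx1/2, and 1855 and 1874 bp in Col-0. The longest pericentromeric median was thus below the shortest arm median. Over the 6 libraries the means were 1701 ± 14.3 bp and 1839 ± 21.4 bp, a difference of -138.5 bp (SD 7.81). The median score percentile was 41.7 ± 0.792 in the pericentromeres and 50.9 ± 0.0697 in the arms. There were 41.9 ± 0.540 peaks per Mb in the pericentromeres and 149 ± 0.854 in the arms. The share of protein-coding genes with a peak over at least 200 bp of the gene was 38.5% ± 0.291 in the pericentromeres and 65.2% ± 0.405 in the arms. Each of these 4 differences had the same sign in 6 of 6 libraries, and a two-sided exact sign-flip permutation test over the 6 libraries gave p = 0.031, the smallest it can give, and 0.031 after adjustment over the 4.

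**Figure D2:**
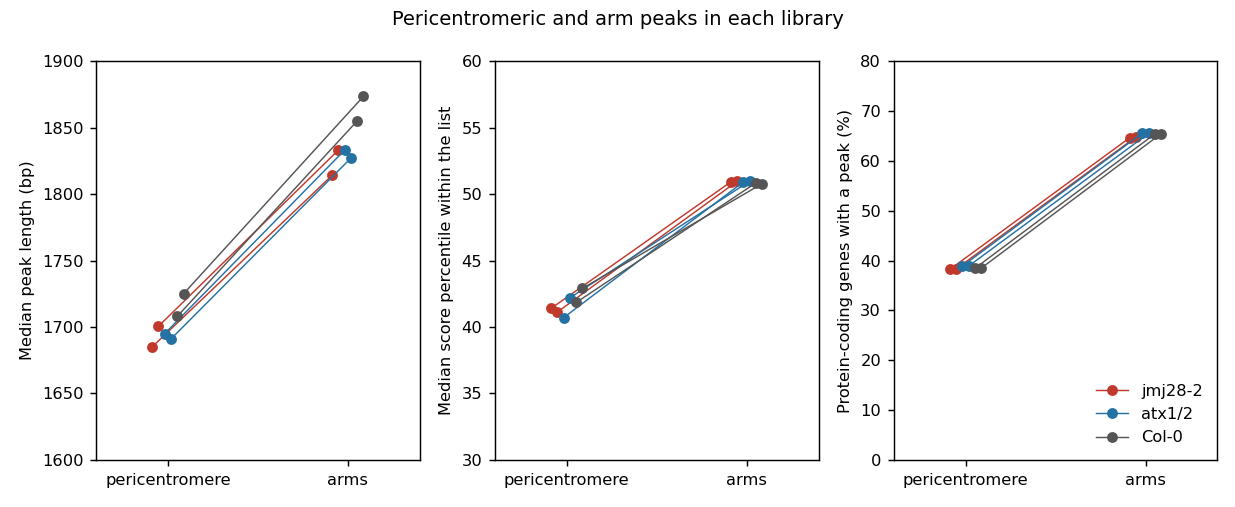
Median peak length in bp (left), median score percentile within the peak list (middle) and percentage of protein-coding genes with a peak (right) in the pericentromeres and in the arms; each line joins the 2 values of one library, coloured by genotype, and the axes of the first 2 panels do not start at 0. In all 6 libraries the value is lower in the pericentromeres, for the share of genes 38.5% on average, against 65.2% in the arms.

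Pericentromeric regions held fewer genes each. Of pericentromeric regions 13.9% overlapped 2 or more protein-coding genes, against 32.6% of arm regions. Among regions that overlapped exactly 1 protein-coding gene and had a peak in all 6 libraries, 948 in the pericentromeres and 7915 in the arms, the median peak was 1708 ± 11.6 bp and 1792 ± 16.3 bp. The difference of -83.25 bp was again in the same direction in 6 of 6 libraries (exact sign-flip p = 0.031). In these regions the score percentile was 45.4 ± 0.583 in the pericentromeres and 49.0 ± 0.463 in the arms (p = 0.031 by the same exact test, both adjusted over 2).

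The gene classes differed in how far they were marked. A gene counted as marked also where its peak lay on a protein-coding gene as well. In the first Col-0 library 82 pericentromeric and 895 arm long non-coding RNA genes had a peak. Regions on such a gene without a protein-coding gene, at any overlap and over all 6 libraries, numbered 18 and 37. For pseudogenes there were 53 and 56 genes, and 37 and 29 such regions. The part of shared peaks in the class differences was not tested. Of annotated pseudogenes 1.52% ± 0.0639 had a peak in the pericentromeres and 9.98% ± 0.271 in the arms. The shares were 5.22% ± 0.524 and 17.4% ± 0.557 for transcribed pseudogenes, 13.5% ± 0.528 and 31.0% ± 0.308 for long non-coding RNA genes, and 12.4% ± 1.26 and 20.6% ± 1.03 for genes annotated as miscellaneous RNA in the pericentromeres and in the arms (SD, 6 libraries). All of these were lower in the pericentromeres in 6 of 6 libraries, with an exact sign-flip p of 0.031, 0.0375 after adjustment over 6 classes. Genes of the class ncRNA were the exception: 34.1% ± 2.87 of the 44 in the pericentromeres and 34.4% ± 0.660 of the 177 in the arms had a peak, a difference of -0.278 percentage points (SD 2.48) that was negative in 4 of 6 libraries (exact p = 0.8125). A test that misses the threshold does not show the 2 shares to be alike.

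**Figure D3:**
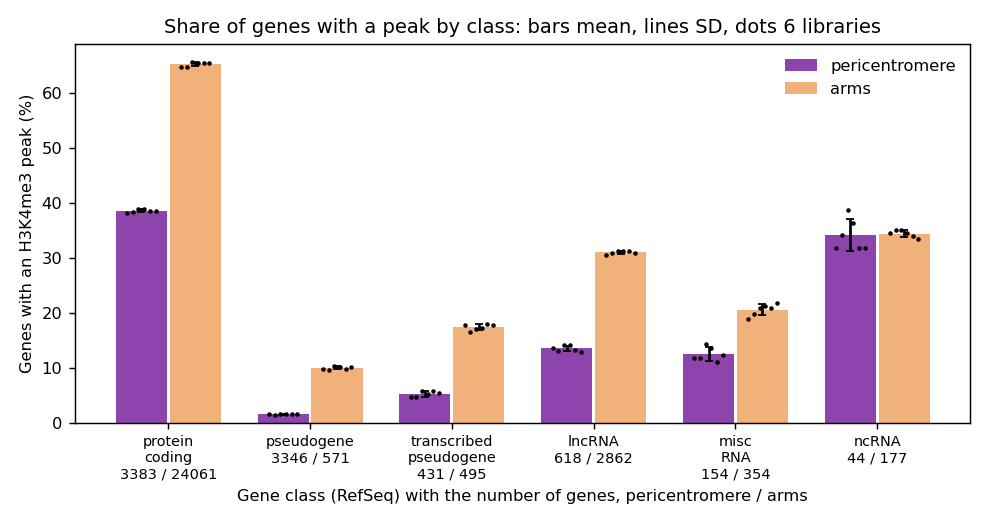
Percentage of genes of each RefSeq class that have an H3K4me3 peak over at least 200 bp, in the pericentromeres (left bar of each pair) and the arms (right bar); bars are means over 6 libraries, lines the SD, dots the libraries, and the numbers under each class count its genes. The bars of the ncRNA class stand at 34.1% and 34.4%, and in the other 5 classes the pericentromeric bar is the lower one.

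Most pericentromeric regions were found in every library. Of the 1353, 1212 (89.6%) had a peak in all 6 libraries, 43 in 5, 24 in 4, 19 in 3, 26 in 2 and 29 in 1, against 92.1% in all 6 for the arms. Among regions with a protein-coding gene, 91.4% in the pericentromeres and 92.4% in the arms had a peak in all 6, and among regions without one the shares were 70.2% and 69.9%. Regions without a protein-coding gene were 114 of the pericentromeric regions (8.43%) and 166 of the arm regions (1.25%). Of those 114, 37 lay on an annotated pseudogene, 18 on a transcribed pseudogene, 18 on a long non-coding RNA gene, 11 on an ncRNA gene, 8 on a miscellaneous RNA gene, 3 on a microRNA gene and 1 on a small nucleolar RNA gene, and 18 were assigned to no gene. A protein-coding gene counted here from an overlap of 200 bp, and a gene of another class at any overlap. The spread between libraries of one genotype was of the same order in both parts: 91.7% ± 0.705 of pericentromeric bases covered in either library of a genotype were covered in both, and 92.2% ± 0.439 of arm bases (3 pairs, exact sign-flip p = 0.25, the smallest 3 pairs can give).

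The regions that carry no protein-coding gene included long peaks. The pseudogene AT5G33382, on chromosome 5 at 12616134 to 12620560 and 3.38 Mb inside the border, had 4280 and 2695 bp in the jmj28-2 libraries, 2636 and 4321 bp in those of atx1/2, and 4092 and 4360 bp in Col-0. Libraries of one mutant differed there by more than the genotypes did. The pseudogene AT2G14220 had 2996 and 2941 bp in the jmj28-2 libraries, 3055 and 2970 bp in those of atx1/2, and 2848 and 3023 bp in Col-0, at a mean score percentile of 90.1. Among regions assigned to no gene, the 4 longest by mean length had peaks of 1522, 1484, 1459 and 1317 bp. One of these, on chromosome 3 at 12559015 to 12560540, had 1437 and 1425 bp in the jmj28-2 libraries, 1522 and 1463 bp in those of atx1/2, and 1388 and 1520 bp in Col-0, and ranked in the middle of the lists at a mean percentile of 50.2.

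The 1212 regions marked in all 6 libraries had a median length of 1724 bp, with 5% below 1298 bp and 5% above 2869 bp. The longest was the region of APR1, which encodes an adenylylsulfate reductase of sulfate assimilation and shares the region with AT4G04614 and the autophagy gene ATG8B. It measured 5364 and 5410 bp in the jmj28-2 libraries, 5438 and 5838 bp in those of atx1/2, and 5608 and 5938 bp in Col-0. AT5G38210, AT5G27390, GAPB and PCL1 followed, with means of 4942, 4306, 4289 and 4189 bp. The regions of AT5G27390, GAPB and PCL1 also overlap other protein-coding genes. The highest score percentile belonged to PCL1, the clock gene also called LUX, at 99.8 on average. MYC2, the transcription factor of jasmonate responses, followed at 99.4, then the trihelix factor GTL1 at 98.9, SOS5, a fasciclin-like arabinogalactan protein, at 98.6, and the nitrate reductase gene NIA2 at 98.3. The regions of MYC2 and SOS5 also overlap other protein-coding genes. PCL1, SOS5, MYC2 and GTL1 lay near a window border, 0.116, 0.162, 0.300 and 0.553 Mb inside it, and NIA2 lay 2.66 Mb inside. MYC2 varied little, with 2609 and 2656 bp in the jmj28-2 libraries, 2608 and 2562 bp in those of atx1/2, and 2585 and 2617 bp in Col-0. NIA2 had lengths close to each other (3685 and 3809 bp in the jmj28-2 libraries, 3810 and 3803 bp in those of atx1/2, and 3776 and 3806 bp in Col-0) but ranked at 99.9 and 99.9 in jmj28-2, 99.5 and 99.7 in atx1/2, and 94.5 and 96.4 in Col-0. Scores were not tested.

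To see which functions lie in these marked islands, 100 genes inside the windows were followed in 8 lists. They are well-known genes picked with earlier results of these data known, so their high share with a peak is no result about pericentromeric genes as a whole. Of the 100, 73 had a peak in all 6 libraries, 4 in some and 23 in none. In 76 it was present in at least 2 libraries, and these were tested between genotypes. Lengths and percentiles are those of the whole region of a gene. Among those named below, the regions of GAPB, LUX, MYC2, MPK3, RPL5B, RPS17A, ANNAT1, UBQ10 and DDB1A also overlap other protein-coding genes.

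All 17 genes of photosynthesis and the chloroplast had a peak in at least 1 library, and 14 had one in all 6. GAPB, a subunit of the glyceraldehyde-3-phosphate dehydrogenase of the Calvin cycle, had 4313 and 4321 bp in the jmj28-2 libraries, 4289 and 4207 bp in those of atx1/2, and 4215 and 4390 bp in Col-0. GLN2, the plastid glutamine synthetase, averaged 2595 ± 77.0 bp, the photorespiratory aminotransferase gene AGT 2508 ± 36.5 bp, and ATPC1, a subunit of the chloroplast ATP synthase, 2492 ± 31.2 bp (SD, n = 6 libraries, as in the means that follow). The weak ones were members of tandem families. LHCB2.1 and LHCB2.2, light-harvesting proteins of photosystem II, had a peak in 1 and in 5 libraries, and RBCS3B, a Rubisco small subunit gene, in 5, at 684 and 940 bp in the jmj28-2 libraries, 959 and 730 bp in those of atx1/2, and 0 and 920 bp in Col-0. Reads from these near-identical copies may have been split or dropped in mapping, so their lengths are uncertain, as are those of RBCS1B, RBCS2B, RPL9B, RPL9C, UBQ10, UBQ11 and BIP1.

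Light and clock genes were marked with the exception of ELF4-L3. LUX averaged 4189 ± 453 bp, of which 5110 bp in the first Col-0 library, while the other 5 libraries lay between 3955 and 4080 bp. The blue-light receptor genes PHOT1 and CRY1 averaged 2364 ± 402 and 2305 ± 91.3 bp, and RVE2, a MYB factor related to the clock, 2282 ± 37.2 bp. Of 14 hormone genes 11 were marked in all 6 libraries. ABCB19, an auxin transporter, led with 3691 ± 71.1 bp, before NIT1, a nitrilase, with 2900 ± 57.0 bp, LOX2, a lipoxygenase of jasmonate synthesis, with 2793 ± 359 bp, and MYC2 with 2606 ± 31.7 bp. The neighbouring nitrilase genes NIT2 and NIT3, and the brassinosteroid oxidase gene BR6OX1, had no peak in any library, whereas its relative BR6OX2 had one of 2306 ± 59.5 bp.

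The immunity list was split: 5 of 11 genes had a peak in all 6 libraries and 6 had none. The marked ones included the kinase gene MEKK1 with 1987 ± 37.9 bp, the callose synthase gene PMR4 with 2398 ± 90.6 bp and MYB30, a transcription factor of the hypersensitive response, with 2068 ± 73.4 bp. The unmarked ones were the pathogenesis-related genes PR1 and PRB1, the resistance gene RPP1, CBP60G, a regulator of salicylic acid synthesis, and the myrosinase genes TGG1 and TGG2. MPK3, a mitogen-activated protein kinase of defence signalling, had the longest peak, in a region shared with the nitrate efflux gene NAXT1. It measured 4039 and 3968 bp in the jmj28-2 libraries, 3625 and 4119 bp in those of atx1/2, and 2578 and 2762 bp in Col-0, so neither mutant overlapped Col-0. On the log2(bp + 200) scale its differences from Col-0 were 0.55 (SE 0.07) in jmj28-2 and 0.50 (SE 0.07) in atx1/2, and neither passed the test (limma adjusted p = 0.0686 and 0.0764).

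Of 16 cytosolic ribosomal protein genes 15 were marked in all 6 libraries, with shorter peaks (median of the means 1617 bp). RPL5B had the longest, 3341 ± 147 bp in a region shared with AT5G39730, then RPS17A with 2262 ± 193 bp, RPL3A with 2143 ± 112 bp and RPL18C with 1832 ± 59.6 bp, and RPL30A had none. Among 14 genes of ubiquitin, chaperones and metabolism, 13 were marked in all 6, led by NIA2 with 3782 ± 48.9 bp, the annexin gene ANNAT1 with 3554 ± 191 bp, the polyubiquitin gene UBQ10 with 3373 ± 313 bp and DDB1A, a part of cullin E3 ligases, with 3102 ± 80.9 bp. The sucrose synthase gene SUS4 was the one without a peak. Of 15 genes of chromatin, RNA and development, 10 were marked in all 6: GTL1 with 3453 ± 99.9 bp, the cyclin gene CYCA1-1 with 2610 ± 167 bp, STOP1, a zinc finger factor of acid tolerance, with 2583 ± 63.4 bp and the co-repressor gene SEU with 2082 ± 227 bp came first. DAYSLEEPER, a gene derived from a transposase, had 1029 and 2137 bp in the jmj28-2 libraries, 1782 and 1908 bp in those of atx1/2, and 1720 and 0 bp in Col-0. The developmental genes AN3, KNAT1, EPF2 and TT8, the last a regulator of flavonoid pigment, had no peak. Neither had any of the 7 auxin response factor genes clustered on chromosome 1 (ARF12, ARF13, ARF14, ARF15, ARF20, ARF21 and ARF22). How well reads map to related genes, such as these or the nitrilase and myrosinase genes, was not examined. A missing peak there need not mean a missing mark.

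**Figure D4:**
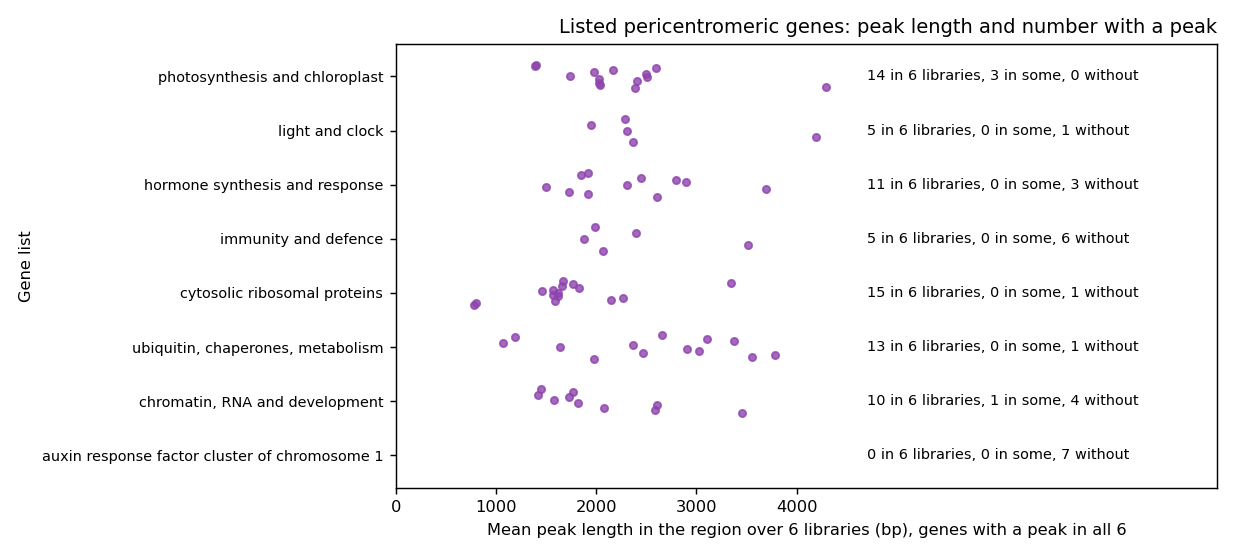
Mean peak length in bp over 6 libraries of the region of each listed gene with a peak in all 6 libraries (dots), by gene list, with the number of genes marked in all 6 libraries, in some and in none at the right. The auxin response factor cluster has 0 of 7 genes with a peak, and the photosynthesis list has 14 of 17 with one in all 6 libraries. How well reads map to the cluster was not examined.

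No listed gene passed the test of length between genotypes. By limma with Benjamini-Hochberg adjustment over all 14394 regions tested, 0 of the 76 listed regions passed in either mutant against Col-0 or between the mutants. At an unadjusted p under 0.05 there were 1 shorter and 4 longer in jmj28-2 (1.32% and 5.26%, against 5.69% and 1.73% of all regions), and 1 shorter and 2 longer in atx1/2 (1.32% and 2.63%, against 5.36% and 2.94%). Between the mutants 4 were shorter and 1 was longer in atx1/2 (5.26% and 1.32%, against 2.66% and 4.20%). The medians over single lists lay between -0.04 and 0.01 in jmj28-2 and between -0.04 and 0.04 in atx1/2 on the log2 scale, and over all pericentromeric regions tested they were -0.01 and -0.01.

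How much of the pericentromeres was covered differed little between genotypes. The number of pericentromeric peaks was 1291 and 1292 in jmj28-2, 1325 and 1323 in atx1/2, and 1292 and 1291 in Col-0. Those in atx1/2 lay above both Col-0 libraries, and they were also a larger share of their lists: 9.14% and 9.13%, against 9.01% and 9.03% in Col-0. In jmj28-2 the share was 9.0% and 9.03%. Covered length was 2.28 and 2.31 Mb in jmj28-2, 2.36 and 2.35 Mb in atx1/2, and 2.33 and 2.35 Mb in Col-0. With 2 libraries against 2, an exact permutation test cannot give less than p = 0.33, so none of these differences could pass, and the value for the number of peaks in atx1/2 was p = 0.33. The atx1/2 lists also held the most peaks in the genome, 14492 and 14493, against 14343 and 14291 in Col-0, and their median scores were 526.85 and 537.95, against 469.02 and 459.65 in Col-0. The part of these values in the pericentromeric numbers was not tested.

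Regions that a mutant lost or gained altogether were few. A region was called lost where both Col-0 libraries and neither mutant library had a peak, and gained in the reverse case. In jmj28-2, 12 pericentromeric regions were lost, 0.887% of the pericentromeric regions, against 0.961% over all regions of the genome, and 10 were gained (0.739%, against 0.504%). In atx1/2, 9 were lost (0.665%, against 0.757%) and 28 were gained (2.07%, against 1.23%), and the share gained in the arms was 1.14%. The mutants share their Col-0 libraries: 4 lost regions were common to both, 33.3% of those of jmj28-2 and 44.4% of those of atx1/2, as were 8 gained regions, 80% of those of jmj28-2 and 28.6% of those of atx1/2. These peaks were among the weakest of their lists. In jmj28-2 the median score percentile of the lost peaks was 3.16 and that of the gained ones 2.59; in atx1/2 the medians were 3.07 and 3.35, and of all of them only the gained region of AT3G45430 in atx1/2 had a score of at least 100 in both libraries.

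**Figure D5:**
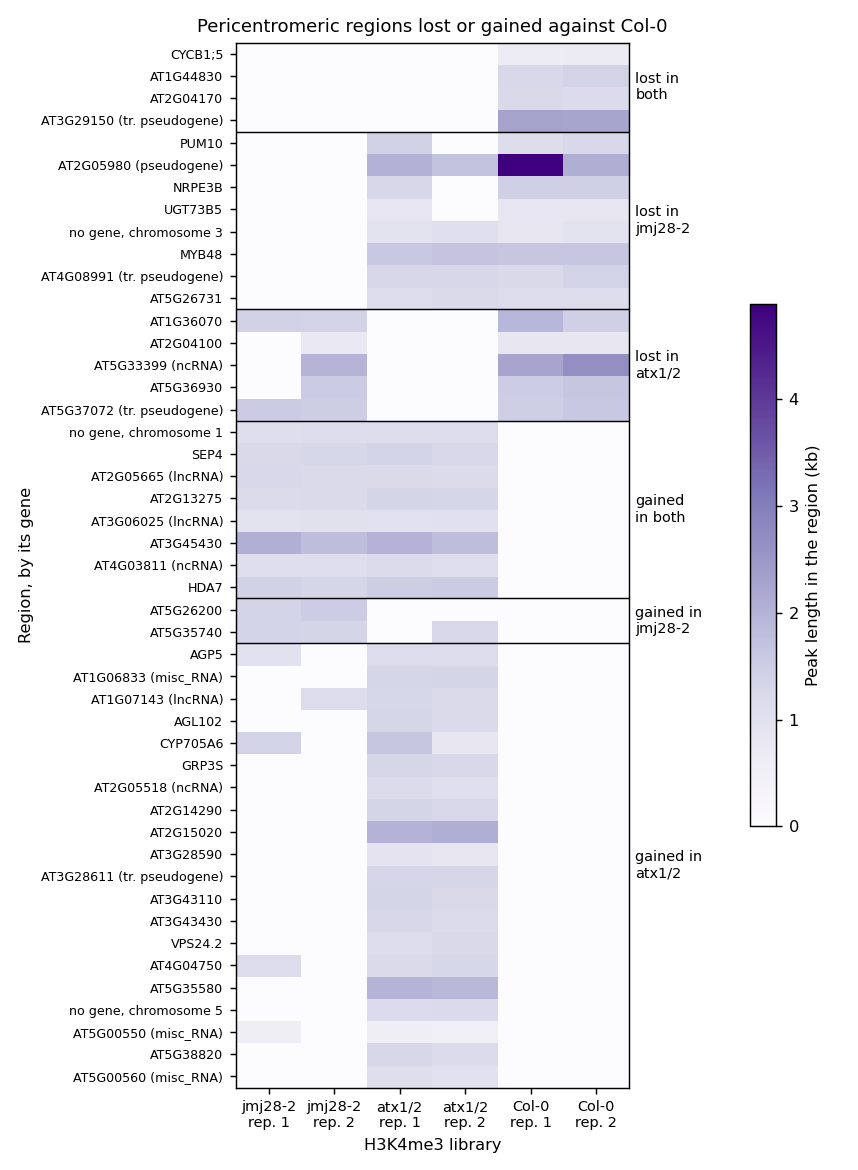
Peak length in kb in each library (columns) for every pericentromeric region lost or gained in a mutant against Col-0 (rows, named by gene); white means no peak. The 8 regions gained in both mutants are filled in the 4 mutant libraries and empty in both Col-0 libraries, and most filled cells lie between 1 and 2 kb.

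The 4 regions lost in both mutants lay on CYCB1;5, a B-type cyclin gene, on AT1G44830, which encodes an ERF-type transcription factor, on AT2G04170 and on the transcribed pseudogene AT3G29150. CYCB1;5 had 0 and 0 bp in the jmj28-2 libraries, 0 and 0 bp in those of atx1/2, and 663 and 687 bp in Col-0. AT3G29150 had the longest of them, 2307 and 2237 bp in Col-0, with scores of 21 and 24 that sit at the lower end of the lists. A further 8 were lost in jmj28-2: those of PUM10, an RNA-binding protein of the Pumilio family, NRPE3B, a subunit of RNA polymerase V, UGT73B5, a glycosyltransferase, MYB48, AT5G26731, the pseudogenes AT2G05980 and AT4G08991, and the region assigned to no gene at the edge of the long peak-free stretch of chromosome 3. The strongest was MYB48, a MYB transcription factor gene, with 0 and 0 bp in the jmj28-2 libraries, 1590 and 1665 bp in those of atx1/2, and 1631 and 1628 bp in Col-0, at scores between 83 and 126 where a peak was called. PUM10, NRPE3B and UGT73B5 had a peak in the first atx1/2 library and none in the second. A further 5 were lost in atx1/2, those of AT1G36070, AT2G04100, AT5G36930, the ncRNA gene AT5G33399 and the transcribed pseudogene AT5G37072. Of these, AT2G04100, AT5G36930 and AT5G33399 had a peak in the second jmj28-2 library and none in the first. AT1G36070 had 1376 and 1371 bp in the jmj28-2 libraries, 0 and 0 bp in those of atx1/2, and 1924 and 1450 bp in Col-0.

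The 8 regions gained in both mutants lay on SEP4, a MADS-box gene of flower development, HDA7, annotated as a histone deacetylase, the lectin receptor kinase gene AT3G45430, AT2G13275, the long non-coding RNA genes AT2G05665 and AT3G06025, the ncRNA gene AT4G03811, and 1 region of chromosome 1 assigned to no gene. SEP4 had 1237 and 1280 bp in the jmj28-2 libraries, 1359 and 1256 bp in those of atx1/2, and 0 and 0 bp in Col-0. HDA7 had 1388 and 1309 bp in the jmj28-2 libraries, 1472 and 1512 bp in those of atx1/2, and 0 and 0 bp in Col-0. AT3G45430 was the longest, with 2072 and 1806 bp in the jmj28-2 libraries, 1998 and 1805 bp in those of atx1/2, and 0 and 0 bp in Col-0. Gained in jmj28-2 but not in both atx1/2 libraries were AT5G26200 and AT5G35740.

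The 20 regions gained in atx1/2 alone by this rule included AGL102, another MADS-box gene, AGP5, an arabinogalactan protein gene, the cytochrome P450 gene CYP705A6, the glycine-rich protein gene GRP3S, VPS24.2, a subunit of the ESCRT machinery of endosomes, the kinase-like gene AT5G35580 and AT2G15020. AT2G15020 was the longest, with 0 and 0 bp in the jmj28-2 libraries, 1988 and 2094 bp in those of atx1/2, and 0 and 0 bp in Col-0, at scores of 36 and 40. AGL102 had 0 and 0 bp in the jmj28-2 libraries, 1308 and 1217 bp in those of atx1/2, and 0 and 0 bp in Col-0, at scores of 29 and 25. AT5G35580 had 0 and 0 bp in the jmj28-2 libraries, 1978 and 1905 bp in those of atx1/2, and 0 and 0 bp in Col-0. Some of these regions also had a peak in 1 jmj28-2 library, among them AGP5 and CYP705A6 with 991 and 1369 bp in the first. No fold is given for regions whose other group is at 0. The lowest scores in the lists were 20.01 to 20.08.

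Among the 1324 pericentromeric regions that 2 or more libraries marked, limma called 10 shorter and 9 longer in jmj28-2 (0.755% and 0.68%, against 0.98% and 0.459% of all regions tested). In atx1/2 it called 7 shorter and 25 longer (0.529% and 1.89%, against 0.875% and 0.98%), and in atx1/2 against jmj28-2, 3 shorter and 21 longer (0.227% and 1.59%, against 0.472% and 1.11%). Of the 19, 32 and 24 calls in these 3 comparisons, 18, 29 and 23 were regions where one of the 2 genotypes had no peak in either library, so the test there restates that a weak peak was called or not, and no p-value is given for them. With trended, robust variances 4 were called shorter in jmj28-2, 2 shorter and 8 longer in atx1/2, and 4 longer in atx1/2 than in jmj28-2. The counts moved with single libraries. Without the first or the second jmj28-2 library, 19 or 20 regions were called shorter in jmj28-2. Without the first or the second atx1/2 library, 12 or 14 were called shorter and 10 or 9 longer in atx1/2, and 5 or 10 shorter and 5 or 10 longer than in jmj28-2. Without the first or the second Col-0 library, 19 or 16 were called longer in jmj28-2, and without the first, 3 were called shorter in atx1/2. Without the first jmj28-2 library, the direct comparison of atx1/2 with jmj28-2 called 6 shorter and 35 longer. With the 14291 highest-scoring peaks of each list, 21 of the 28 regions gained in atx1/2 were still gained, and at a minimum score of 100, 1 of the 28 was. Among peaks of that score some shares turned round: longer in atx1/2 were 1.04% of pericentromeric and 1.27% of arm regions (1.89% and 0.888% over all peaks), and gained in jmj28-2 were 0.422% and 0.796% (0.739% and 0.481% over all peaks). The share gained in atx1/2 did not. With only these peaks merged, 20 pericentromeric regions were gained there, 1.69%, against 1.43% of arm regions (2.07% and 1.14% over all peaks).

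Where a peak was present in all 6 libraries, few lengths were called different between genotypes. Of these 1212 regions, 1 was shorter and 0 were longer in jmj28-2 (against 0.223% and 0.0445% of all such regions), and 1 was shorter and 2 were longer in atx1/2 (against 0.274% and 0.089%). At an unadjusted p under 0.05, 51 were shorter and 23 longer in jmj28-2 (4.21% and 1.90%, against 4.98% and 1.3% of all such regions), and 50 were shorter and 25 longer in atx1/2 (4.13% and 2.06%, against 4.86% and 1.77%). In the direct comparison of atx1/2 with jmj28-2, 0 were shorter and 1 was longer (against 0.119% in each direction), and at an unadjusted p under 0.05 there were 33 shorter and 39 longer (2.72% and 3.22%, against 2.36% and 3.09%). The median change was -0.01 on the log2 scale in each mutant. Of these regions 59.6% were shorter in jmj28-2 than in Col-0, and 55.9% in atx1/2. In the arms the medians were -0.02 and -0.01, with 64.6% and 59.3% shorter. The differences between the parts were not tested.

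The region that was shorter in both mutants lies on chromosome 3 at 10576554 to 10581596 and overlaps AT3G28310 and the pseudogene AT3G28315. It had 1807 and 1877 bp in the jmj28-2 libraries, 1730 and 2373 bp in those of atx1/2, and 5024 and 4773 bp in Col-0. The mutant peaks began at the same end of the region as those of Col-0 and stopped earlier. The log2 change was -1.32 (SE 0.14, adjusted p = 0.0377) in jmj28-2 and -1.19 (SE 0.14, adjusted p = 0.0440) in atx1/2, and the mutants share the Col-0 libraries. The peaks were weak, with scores between 37.8 and 66.6. Both calls were lost without either Col-0 library, or without either jmj28-2 library, with adjusted p-values of up to 0.187 and 0.204 over all alternatives. The call in atx1/2 was also lost with a pseudocount of 50 bp, without the filter on libraries, with trended variances and with only the 4 libraries compared.

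The region of AT4G09840, on chromosome 4 at 6190562 to 6193410, was longer in atx1/2. It had 1656 and 1579 bp in the jmj28-2 libraries, 2781 and 2708 bp in those of atx1/2, and 1620 and 1630 bp in Col-0, and also overlaps AT4G09830 and AT4G09850. The log2 change in atx1/2 was 0.69 (SE 0.03, adjusted p = 0.000871) against Col-0 and 0.70 (SE 0.03, adjusted p = 0.000926) against jmj28-2, and in jmj28-2 it was -0.01 against Col-0 (adjusted p = 0.993). In the first atx1/2 library the added length was a second peak of 1084 bp with a score of 35.0 beside one of 1697 bp with a score of 261. At a minimum score of 100 that second peak is left out and both calls were lost (adjusted p = 0.785 against Col-0 and 0.841 against jmj28-2). SFP1, a sugar transporter-like gene on chromosome 5 at 9648364 to 9650341, had 1436 and 1200 bp in the jmj28-2 libraries, 1950 and 1929 bp in those of atx1/2, and 1123 and 1180 bp in Col-0. Its change in atx1/2 was 0.66 (SE 0.08, adjusted p = 0.0464) against Col-0, and 0.50 (SE 0.08, adjusted p = 0.153) against jmj28-2. The call was lost without any one of the 4 libraries of atx1/2 and Col-0, with a pseudocount of 50 bp, without the filter on libraries and at a minimum score of 100, with adjusted p-values of up to 0.335 over all alternatives.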

How the data were processed

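H3K4me3 ChIP-seq of 6 libraries was analysed, 2 for each of 3 genotypes. The authors deposited 1 peak list per library with positions and a score for each peak. The submitters' processing notes name the build TAIR10 and the tools MACS 1.4, Bowtie2 2.2.8, deepTools 2.4.1 and ChIPseeker, with no role given for any. The score is the authors' own value per peak and was used to rank or filter peaks within a list. The lists hold no read counts, so depth is unknown, no counting interval can be given, and peak length depends on the caller's threshold. The 3 H3 samples were not analysed here. The 13 chloroplast peaks of the 6 lists were left out.

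Peaks were merged at an overlap of 1 bp, and the bases of each library's peaks were summed per region. Lengths were compared in limma 3.58.1 (R 4.3.3) on log2(bp + 200), with all 6 libraries in one fit (3 residual degrees of freedom), regions marked in 2 or more libraries, and Benjamini-Hochberg adjustment over 14394 regions at a threshold of 0.05. A change in bp is understated on this scale in short regions. Pericentromere and arms were compared by exact sign-flip tests over libraries. Arm length runs between the outermost peaks of a chromosome. Genes came from RefSeq (assembly TAIR10.1, used for names and neighbours), by the largest overlap of at least 200 bp. In all 20 windows of 1000 kb with at least 20 regions, the overlap of regions and genes was greatest at a shift of at most 400 bp. Of the 13 windows with fewer regions or none, 10 met this limit, an empty one included. The largest shift there was -3200 bp, on chromosome 3. The scripts were tested on simulated data.

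The windows, members, gene lists and rules were chosen with earlier results of these data known. Named are regions that were called, lost or gained (up to 10 per direction and mutant), the 5 longest and 5 highest-ranking, those beside the longest stretch without a peak, up to 4 listed genes per list and all listed genes without a peak, and 4 regions assigned to no gene. Others are named as examples chosen after their values were seen. No other sequence or strand information was used.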

Additional observations from a re-analysis of the deposited data

Results flagged for a closer look

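The mutants moved in opposite directions from Col-0 in 2 counts over the pericentromeres, and neither difference was tested against the other. Pericentromeric regions with a peak numbered 1273 and 1271 in jmj28-2, 1311 and 1307 in atx1/2, and 1279 and 1280 in Col-0, which is -7.5 for jmj28-2 and 29.5 for atx1/2 relative to the Col-0 mean. The share of pericentromeric protein-coding genes with a peak was 38.2% and 38.3% in jmj28-2, 38.9% and 38.9% in atx1/2, and 38.5% and 38.5% in Col-0, a difference of -0.207 percentage points for jmj28-2 and of 0.429 for atx1/2. In both counts the 2 libraries of each mutant lay on the same side of both Col-0 libraries. In the arms the share of genes differed in the same directions, by -0.727 percentage points for jmj28-2 and 0.0914 for atx1/2, so this is not particular to the pericentromeres.

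The mutants were also compared with each other directly. In limma, 3 pericentromeric regions were shorter and 21 were longer in atx1/2 than in jmj28-2, of 1324 tested (0.227% and 1.59%, against 0.472% and 1.11% of all regions). In 23 of these 24 regions one mutant had no peak in either library, so the counts restate where weak peaks were called. With a peak in all 6 libraries 1 of 1212 regions was called, and with trended variances 2 were shorter and 4 longer. The shorter ones are those of AT1G36070, AT5G26200 and the transcribed pseudogene AT5G37072. Among the longer ones are MYB48 and AT5G26731, which had a peak in both libraries of atx1/2 and of Col-0 and in neither of jmj28-2, and AGL102, GRP3S and AT2G15020, which had a peak in atx1/2 only.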

How the results depend on the processing

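The lists are peak calls with no read counts, 2 per genotype, so weak peaks near the score threshold and small differences in length limit what can be seen. The 4 comparisons of pericentromeres with arms over libraries (length, score percentile, density, share of genes) kept their direction under all alternatives run. Leaving out 1 library gave differences of -140.4 to -136.5 bp in median length, -9.47 to -9.01 in score percentile, -106.9 to -106.7 peaks per Mb and -26.7 to -26.6 percentage points of genes, each at an exact sign-flip p of 0.0625, the smallest 5 libraries allow. Without 1 library, calls of shorter and longer regions ranged from 7 to 20 and from 11 to 19 in jmj28-2, from 3 to 14 and from 9 to 36 in atx1/2, and from 2 to 10 and from 5 to 35 between the mutants (atx1/2 against jmj28-2), the lone library being taken to vary like the others. Lost and gained regions need both libraries and have no such value. Windows shrunk by 1 Mb held 508 regions, of which 4 were lost and 5 gained in jmj28-2, and 5 lost and 11 gained in atx1/2. Windows extended by 0.5 Mb gave 22 and 14 lost. At a minimum score of 100, 5 regions were gained in jmj28-2, 5 were called longer in jmj28-2 and 12 in atx1/2, and 5 shorter and 13 longer between the mutants. With the same number of peaks per list, 7 were shorter between the mutants. With trended, robust variances, 4 were called shorter in jmj28-2, 2 shorter and 8 longer in atx1/2, and 4 longer between the mutants. The difference from Col-0 in number of peaks (jmj28-2, then atx1/2) was -10.0 and 26.5 at a score of 100, -2.0 and 15.5 with equal lists, -3.0 and 3.0 with narrower and -4.5 and 35.5 with wider windows. Covered length differed by -0.0130 and -0.00384 Mb with narrower and by -0.0850 and -0.0109 Mb with wider windows, and by -0.00397 Mb in atx1/2 with equal lists. The share of all peak bases that is pericentromeric, 0.0357 percentage points above Col-0 in jmj28-2, turned to -0.00786 at a score of 100 and to -0.00283 with wider windows. In atx1/2 it was 0.0871 at a score of 100, 0.0197 with narrower and 0.0997 with wider windows, against 0.141. Median length in jmj28-2 differed by -9.25 bp with narrower windows. The cause was not tested. Of 75 calls of single regions, 14 held under the alternatives that gave a value for them, 54 were lost under 1 and 7 under more, 51 of them with trended variances, and none turned round. At a score of 100 only 7 still had a value, and all 7 were lost. The replicate numbers did not pair the libraries (correlations of -0.0116, -0.0156 and 0.0199), and with a replicate block 9 regions were shorter and 9 longer in jmj28-2, 6 shorter and 25 longer in atx1/2, and 3 shorter and 21 longer between the mutants, so no count moved by over 1.5 times, though 4 calls were lost: both of AT3G28310 (adjusted p by limma 0.110 for jmj28-2, 0.116 for atx1/2), that of SFP1 (0.145) and a region without a coding gene between the mutants (0.0809).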
